A study of Homo sapiens with 6 samples.

Results

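The 8q24 window is the stretch of chromosome 8 from 126000000 to 131000000 (GRCh38) that holds MYC, the long non-coding RNA gene PVT1 and the gene-poor stretches on both sides. Its members were every open-chromatin peak of 6 lists that overlapped this window, merged into regions wherever peaks of different lists shared at least 1 bp. This gave 1314 regions of 507440 in the genome. By position, 462 lay in the gene-poor flank left of MYC, 6 at LRATD2 and POU5F1B, 9 in the MYC vicinity (the MYC span and 10 kb on each side), 9 between that vicinity and PVT1, 90 in the PVT1 span, 362 in the gene-poor flank between PVT1 and GSDMC, and 376 in the gene-bearing right end that starts at GSDMC. Left and right here mean towards lower and higher positions.

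The study used ATAC-seq, in which a transposase cuts and tags open DNA, in NCI-H1703, an established human cell line of lung squamous cell carcinoma. In 3 libraries, from here on the silenced libraries, the long non-coding RNA DLGAP1-AS2 had been silenced, and 3 control libraries came from the same line. The labels name the silenced samples ASO and the controls NC, and give neither the agent's sequence, its dose nor the time of treatment. All 6 libraries come from 1 cell line, nothing says that they came from separate cultures, and p-values therefore measure only the spread between these libraries, which may be technical.

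MYC encodes a transcription factor that pairs with MAX to bind promoters and to raise the transcription of genes for growth, ribosome production and metabolism. PVT1 is a long non-coding RNA gene beside MYC, is often gained together with it in tumours, and holds enhancers as well as a promoter that can compete with that of MYC. The stretches around them hold few protein-coding genes but many tissue-specific enhancers and inherited cancer-risk sites. Several long non-coding RNAs there (CCAT1, CCAT2, PCAT1, CASC8, CASC11) were named for a link to cancer.

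The lists held between 91346 (control replicate 2) and 170882 (control replicate 1) peaks on the chromosomes. Silenced replicate 3 had the lowest background coverage, 0.237, and control replicate 2 the highest, 0.464, against 0.369 to 0.402 in the other libraries; read numbers are not given, so depth in reads is unknown. Control replicate 2 listed no peak with a height under 3, whereas the other lists went down to 2. As a check of the cell line label, all 6 lists showed a peak no more than 1 kb from an end of 1 of 6 squamous markers (SOX2), 3 of 4 alveolar and adenocarcinoma markers, 1 of 3 neuroendocrine markers, 4 of 4 fibroblast and mesenchymal markers, 0 of 3 leukocyte markers and 0 of 2 endothelial markers. Over the genome, 59.9% of protein-coding genes had such a peak in all 6 lists. The squamous markers TP63, KRT5, KRT14, DSG3 and KRT6A carried one in 4, 2, 1, 2 and 0 lists, so peaks at the ends of these genes gave the squamous label little support. Sites further inside a gene were not examined, so this check cannot decide on the label. It is kept here as the submitters' name for the line.

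The window was rich in peaks for its length. Its peaks numbered 425, 441 and 324 in the silenced libraries (here and below in the order of replicates 1, 2, 3) and 422, 250 and 394 in the controls. The lowest count was in the shortest list, control replicate 2. When the genome was cut into tiles of 5 Mb, the median tile held 277, 287, 189, 293, 125 and 281 peaks in the same order of libraries, and between 46 and 122 of about 608 tiles held more peaks than the window. On chromosome 8 itself, 2 to 4 of 30 tiles held more.

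Most window regions were seen in a single list, as in the genome. Of the 1314 regions, 950 (72.3%) were called in 1 list, against 74.1% of all regions of the genome. A further 83 (6.32%) were called in all 6 lists, against 7.35% of all regions. The sections of the window differed in this respect. In the PVT1 span 17 of 90 regions (18.9%) were called in every list and 38 (42.2%) in 1 list, and in the MYC vicinity 3 of 9 were called in every list. The left flank had 16 of 462 (3.46%) in every list and 360 in 1 list, the right flank 15 of 362 (4.14%) and 289, and the right end 30 of 376 (7.98%) and 251. These shares describe the regions, which share libraries, and carry no test.

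Peak numbers did not separate the groups in any section. The window held 396.7 ± 63.4 peaks (SD, n = 3) in the silenced and 355.3 ± 92.3 in the control libraries (two-sided exact permutation test, p = 0.5; 0.1 is the smallest p that 3 against 3 libraries allow). The PVT1 span held 36, 44 and 40 peaks in the silenced and 48, 47 and 39 in the control libraries, a difference of −4.67 (exact permutation p = 0.3). The MYC vicinity held 6, 6 and 5 against 5, 7 and 7 peaks (exact permutation p = 0.6). The 2 gene-poor flanks together held 262, 239 and 161 against 244, 95 and 218 (exact permutation p = 0.6). Groups overlapped in every one of these measures, and without control replicate 2 the difference was −11.3 peaks in the window and −10.3 in the flanks. Peaks covered 108 ± 21.1 kb of the window in the silenced and 104 ± 22.6 kb in the control libraries (exact permutation p = 0.6), a difference of 4.1 kb that became −4.02 kb without silenced replicate 2 and −8.71 kb without control replicate 2. The window's share of each list was 0.264% ± 0.00262 against 0.253% ± 0.0186 (exact permutation p = 0.4). Adjusted by Benjamini-Hochberg over the 7 permutation tests made here, every p was 0.7.

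**Figure D1:**
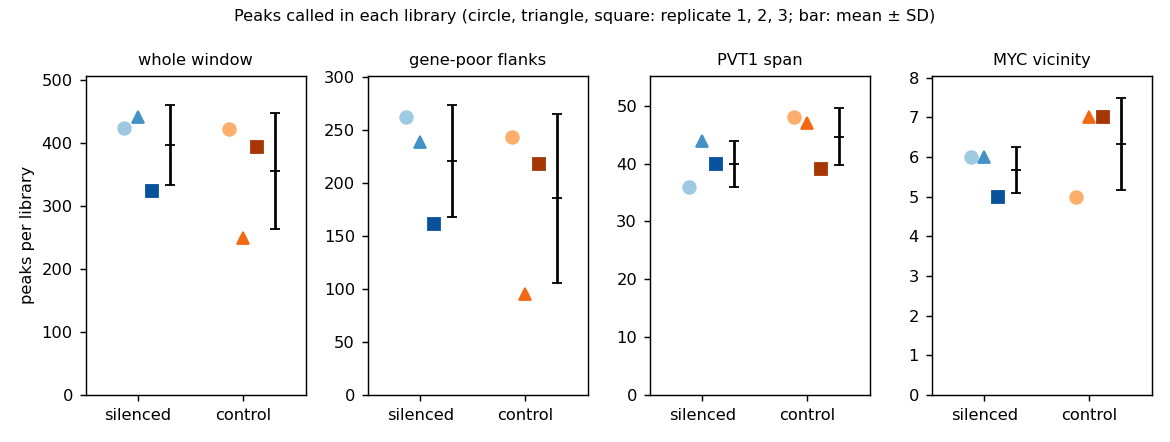
Peaks called per library in the whole window, the gene-poor flanks, the PVT1 span and the MYC vicinity; each point is 1 library and the bar is the mean ± SD of a group of 3. Control replicate 2 is lowest in the window (250) and in the flanks (95) but not in the PVT1 span (47), and the groups overlap in each panel.

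The short list of control replicate 2 was short mainly in the flanks. Its 95 flank peaks compare with 161 to 262 in the other libraries, while its 47 PVT1 peaks and 7 MYC peaks are among the highest counts. Flank peaks were low, with a median height (the authors' pileup at the peak) of 3 in both flanks in 5 libraries, and 6 and 7 in the left and right flank of control replicate 2. Peaks in the PVT1 span had median heights of 15, 16 and 11 in the silenced and 14.5, 14 and 15 in the control libraries, and those in the MYC vicinity of 30, 47 and 33 against 23, 31 and 34.

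At MYC itself, 3 tall regions were called in every list and their heights were alike in both groups. Heights of separate lists are not on a shared scale, so each is also given divided by the list's median height over the 37284 regions called in all 6 lists. That median was 16, 18 and 10 for the silenced and 17, 19 and 17 for the control lists. For the test, fold enrichment (the authors' ratio of a peak to its local background) was ranked within each list among those regions and turned into a normal score, so that a difference of 1 is 1 standard deviation of the ranks.

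The region over the lower end of the MYC span, chr8:127735092-127736437, had heights of 49, 68 and 34 in the silenced and of 64, 61 and 64 in the control libraries. The low value of silenced replicate 3 goes with its low median height: relative heights were 3.41 ± 0.358 in the silenced and 3.58 ± 0.32 in the control libraries (SD, n = 3), and the groups overlapped. Its rank score differed by 0.07 between silenced and control (SE 0.348; limma with Benjamini-Hochberg adjustment over all shared regions, adjusted p = 0.990). By height this difference was −0.06.

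The region over the upper end of CASC11, a long non-coding RNA gene next to MYC, lay at chr8:127733961-127734380. Its heights were 52, 59 and 36 in the silenced and 49, 56 and 55 in the control libraries, with relative heights of 3.38 ± 0.195 against 3.02 ± 0.188. All 3 silenced libraries ranked it above all 3 controls by fold enrichment, as was the case in 5.39% of all shared regions, with a difference of 0.38 (SE 0.365; limma, Benjamini-Hochberg adjusted p = 0.965). In relative height the lowest silenced value was 3.25 (replicate 1) and the highest control value 3.24 (replicate 3), so the groups nearly touched.

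The third region, chr8:127742952-127743547, began 1 bp past the upper end of MYC. It was lower, at 24, 25 and 15 in the silenced and 23, 30 and 27 in the control libraries, or 1.46 ± 0.0642 against 1.51 ± 0.133 in relative height. The rank difference was 0.11 (SE 0.350; limma, Benjamini-Hochberg adjusted p = 0.983), and −0.01 by height.

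A pair of further regions there were called in 4 or 5 lists. The region at chr8:127737540-127737914 inside MYC reached 36 and 35 in silenced replicates 1 and 2, 31 and 34 in control replicates 2 and 3, and was not called in silenced replicate 3 or control replicate 1. A small region inside CASC11, chr8:127725747-127726225, reached 9 and 8 in silenced replicates 1 and 2, then 8, 11 and 3 in the controls, and was not called in silenced replicate 3. Neither set of calls followed the groups.

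Between MYC and PVT1 a single region was called in every list, and it was among the weakest of all shared regions. It lay at chr8:127766958-127767436 with heights of 6, 4 and 4 in the silenced and 4, 5 and 4 in the control libraries. Its relative height was 0.332 ± 0.0962 against 0.245 ± 0.0161. Its rank difference of 0.83 (SE 0.477; limma, Benjamini-Hochberg adjusted p = 0.963) is thus a difference among peaks close to the lowest heights of the lists.

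The PVT1 span (127794524 to 128101256) carried 17 regions in every list, most of them in its left part. They were wide, with a median width of 908 bp against 582 bp for all shared regions of the genome, and their median relative height was 1.57. The tallest lay at chr8:127949120-127950329, 397 bp from an end of LINC02912, a long non-coding RNA gene inside the PVT1 span. Its heights were 61, 74 and 37 in the silenced and 60, 76 and 62 in the control libraries. In relative height that is 3.88 ± 0.213 against 3.73 ± 0.245, above the region at the lower end of MYC in each group, and its groups overlapped.

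The lower end of PVT1 was covered by chr8:127793940-127795448, with heights of 15, 16 and 13 in the silenced and 14, 14 and 10 in the control libraries. Its relative height was 1.04 ± 0.225 against 0.716 ± 0.119, well below that at the lower end of MYC. The silenced libraries ranked it above every control, and the group means differed by 0.70 (SE 0.423, limma with Benjamini-Hochberg adjusted p = 0.963). No region was listed within 1 kb of the upper end of PVT1 in any library.

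After the LINC02912 region, the tallest PVT1 regions were chr8:127831583-127832037 and chr8:127851424-127852460. The first had heights of 39, 46 and 33 in the silenced and 45, 54 and 57 in the control libraries, or 2.76 ± 0.468 against 2.95 ± 0.365 in relative height. The second had heights of 42, 47 and 24 against 41, 40 and 39, or 2.55 ± 0.126 against 2.27 ± 0.155. In the first the groups overlapped. In the second every silenced library ranked above every control, and the group means differed by 0.55 (SE 0.387, limma with Benjamini-Hochberg adjusted p = 0.963).

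Next in height was chr8:127853812-127854801, with 34, 38 and 18 in the silenced and 31, 36 and 44 in the control libraries. The region at chr8:127907822-127908365 had heights of 33, 40 and 27 against 31, 25 and 35, and its relative height was 2.33 ± 0.332 in the silenced and 1.73 ± 0.380 in the control libraries. By fold enrichment its silenced libraries ranked above every control, and the group means differed by 0.61 (SE 0.332, limma with Benjamini-Hochberg adjusted p = 0.963). The same held, with smaller differences, for chr8:127859750-127860657 (29, 33 and 16 against 28, 25 and 27; difference 0.53) and for the low region chr8:127845303-127845832 (11, 13 and 8 against 9, 11 and 13; difference 0.50).

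The other PVT1 regions overlapped between groups. At chr8:127809387-127810501 heights were 26, 34 and 12 in the silenced and 28, 38 and 27 in the control libraries. At chr8:127931392-127932167 they were 32, 35 and 16 against 27, 28 and 35. At chr8:127969354-127970121, the last tall region before the drop described below, they were 24, 32 and 17 against 31, 26 and 21. The remaining ones but 1 had heights from 9 to 28. The rightmost, chr8:128014663-128015022, was the only one beyond that drop, with 15, 11 and 6 in the silenced and 11, 22 and 18 in the control libraries and a rank difference of −0.50.

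**Figure D2:**
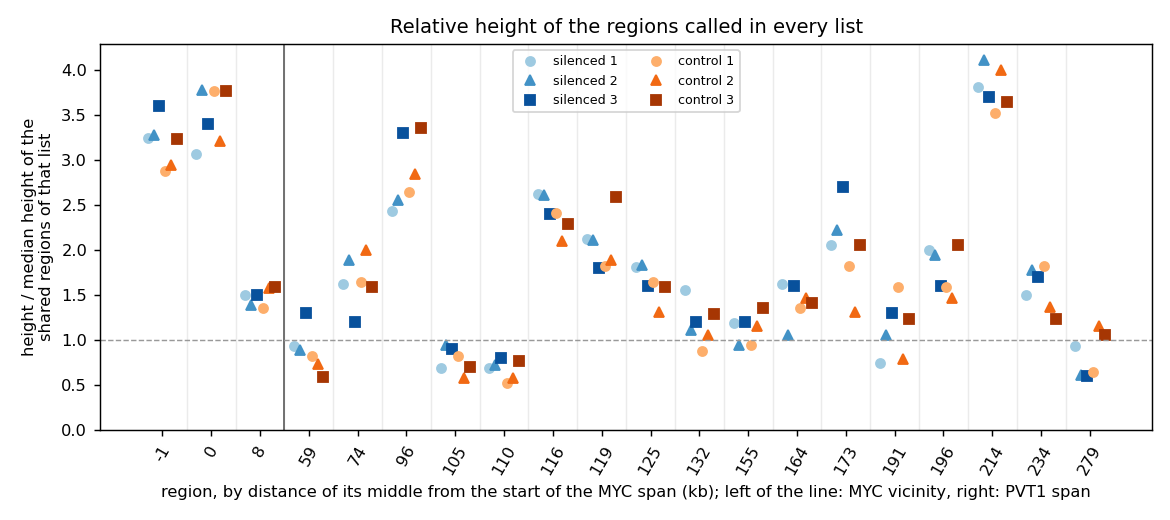
Height of each region called in every list in the MYC vicinity (3 regions) and the PVT1 span (17 regions), divided by that list's median height over all shared regions; the dashed line is that median and each point is 1 library. The regions at the lower end of MYC and near LINC02912 and that at the end of CASC11 are among the 4 highest in every library, and silenced and control points overlap or nearly touch in most regions.

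Most PVT1 regions ranked higher in the silenced libraries by fold enrichment, less clearly by other measures, and no region passed the test. By fold enrichment 13 of 17 (76.5%) had a higher mean score in the silenced group, against 50.9% of all shared regions of the genome. Their median difference was 0.36, against a median of 0.01 over all shared regions. In 5 of 17 (29.4%) all silenced libraries ranked above all controls, against 5.39% of all shared regions, and in 0 of 17 they all ranked below, against 4.78%. Ranked by height, 11 of 17 (64.7%) were higher, against 49.9% of all shared regions, with a median of 0.11. All silenced libraries lay above all controls in 4 of 17 (23.5%), against 5.11% of all shared regions. Ranked by p-value, 11 of 17 were higher, against 49.6%, with a median of 0.09. On log2 height, which has another unit than the scores, 10 of 17 (58.8%) were higher, against 48.9% of all shared regions, with a median of 0.12. Among regions with an FDR of at most 1e-05 in all lists 5 of 9 (55.6%) were higher in score, against 51.0%, with a median of 0.17. Without silenced replicate 3, the library of lowest background coverage, the median by fold enrichment was 0.18 and 11 of 17 (64.7%) were higher, against 51.4%. The 17 regions lie side by side, share their local background and are not independent of each other. The local background in the PVT1 span was lowest in silenced replicate 3, as given below, and its part in the result was not tested.

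The comparison of ranks called nothing in the window. Of the 83 window regions called in every list, 0 passed limma with Benjamini-Hochberg adjustment at 0.05, as did 0 of the 37284 regions of the genome (0%). At an unadjusted p under 0.05 there were 4 window regions, 2 higher and 2 lower in the silenced libraries, a share near the 4.68% of all shared regions. In the window 46 regions (55.4%) had a higher mean score, against 50.9% of all shared regions, and 37 a lower one. The median difference was 0.06, and without silenced replicate 3 it was −0.02. Groups did not overlap in 7 of 83 regions (8.43%) ranked higher in the silenced libraries, against 5.39% of all shared regions, and in 2 ranked lower, against 4.78%.

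**Figure D3:**
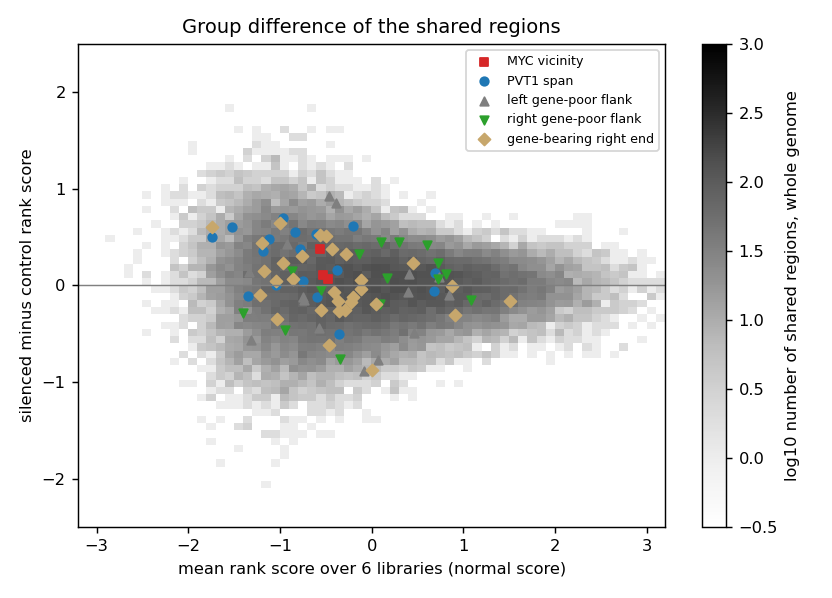
Difference of rank scores (silenced minus control, in normal-score units) against the mean score over the 6 libraries; grey shading counts the 37284 shared regions of the genome on a log10 scale, and coloured points are window regions by section. The shared regions between MYC and PVT1 (difference 0.83) and at LRATD2 and POU5F1B are not drawn. The window points shown lie within the grey cloud. Of the 17 PVT1 points, 13 (76.5%) lie above the zero line, against 50.9% of all shared regions.

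The regions with the largest differences in the window, named by that size, lay outside the MYC vicinity and the PVT1 span, and 1 of them is the region between MYC and PVT1 given above (0.83). The largest positive difference was at chr8:127564926-127565375, left of MYC and outside every gene span, with heights of 16, 11 and 7 in the silenced and 8, 6 and 11 in the control libraries (difference 0.93, SE 0.397). The next was at chr8:126699005-126699353, inside the long non-coding RNA gene LOC105375751, with 14, 10 and 9 against 4, 11 and 7 (difference 0.85, SE 0.395). In both the groups overlapped. The most negative difference was at chr8:127206967-127207393 over the lower end of CCAT1, a long non-coding RNA gene first described in colon cancer. Heights there were 11, 9 and 4 in the silenced and 17, 16 and 14 in the control libraries, and each silenced value lay below each control value, also in rank (difference −0.88, SE 0.327). A region inside GSDMC, a pore-forming gasdermin gene, at chr8:129748347-129748868, had 13, 16 and 3 against 17, 14 and 18 (difference −0.88, SE 0.453). Its low value is that of silenced replicate 3, and without that library its difference was −0.12. At chr8:126809898-126810386 heights were 7, 9 and 7 against 10, 17 and 20 (difference −0.77, SE 0.305). For all of these the limma p adjusted by Benjamini-Hochberg was 0.963.

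Calls in one group alone were few and weak. In all 3 silenced and no control list there were 4 of 1314 window regions, against 662 of 507440 (0.13%) in the genome. In all 3 control and no silenced list there were 5 of 1314, against 1016 of 507440 (0.2%). Both window shares were above those of the genome, but they rest on few regions and were not tested. The 4 were low: chr8:126454088-126454376 had heights of 3, 4 and 3. In CCDC26, a long non-coding RNA gene right of PVT1, chr8:129508537-129509318 had 3, 2 and 3 and chr8:129555356-129555643 had 3, 3 and 2. In GSDMC, chr8:129760845-129761288 had 3, 3 and 2. The 5 in control lists alone reached slightly higher. They were chr8:126221842-126222122 with 3, 6 and 6, chr8:127305647-127305879 in CASC21 and CASC8 with 6, 5 and 4, chr8:127401939-127402220 over an end of CCAT2 with 4, 8 and 5, chr8:127625381-127625821 with 6, 4 and 4, and chr8:130234502-130234733 in ASAP1 with 4, 7 and 5. Among peaks with an FDR of at most 1e-05 such regions numbered 0 and 1, and none of the 9 regions named here met that limit in all 3 of its lists. Most of these heights stand near the smallest that the lists hold, so a missing call is not a closed site. None of the 9 lay in the MYC vicinity or the PVT1 span.

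A raised local background marked MYC and the left part of PVT1 in every library. The background behind a peak, (height + 1) / fold enrichment − 1, was divided by the smallest background of its list, so that 1 is the lowest level in that list. In the PVT1 span the median was 8.60, 9.20 and 7.44 in the silenced and 8.90, 8.54 and 9.15 in the control libraries. In both flanks it was 1 to 1.47. The groups overlapped (8.41 ± 0.896 against 8.86 ± 0.305, two-sided exact permutation p = 0.7), and without silenced replicate 3 the difference of −0.449 became 0.039. In the 3 tall MYC regions called in every list the background ratio was 7.68 to 25.6. Where a list held several peaks in a region, the lowest ratio is given. Of these 3, the region over the lower end of MYC was highest in each library. Its values were 22.7, 24.6 and 20.1 in the silenced and 23.01, 20.01 and 25.6 in the control libraries. The region inside MYC, chr8:127737540-127737914, stood higher still in all 4 lists that called it, at 21.1 to 26.7.

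The background is known only behind listed peaks, so the edges of the raised stretch at PVT1 are known only to the gaps between peaks. The last peak more than 1 kb before PVT1 had a ratio of 1.85, 1.69 and 2.79 in the silenced and 1.90, 1.29 and 3.12 in the control libraries. Its midpoint lay between 127767057 (control replicate 1) and 127789453 (silenced replicate 3). Silenced replicate 2 also listed a peak just before the start of PVT1, with a ratio of 5.67. The first peak overlapping PVT1, with its midpoint between 127794266 and 127795121, had 6.02, 6.02 and 5.07 against 6.27, 4.83 and 5.00. Within the PVT1 span, the last peak with a ratio of at least 8 lay between 127969511 and 127969996 in all 6 lists, with ratios of 11.0, 11.7 and 8.96 against 10.9, 10.8 and 9.95. These peaks all belong to chr8:127969354-127970121, a region called in every list. The next listed peak lay 7287 to 35920 bp further right, with a ratio of 2.04 to 3.88. The left part of PVT1 up to that point held 26, 32 and 30 peaks in the silenced and 37, 38 and 31 in the control libraries, with median ratios of 8.67 to 10.4 and none under 4.13. The right part held 8 to 12 peaks per library with median ratios of 2.72 to 3.85. The limit of 8 was chosen after these values were seen.

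**Figure D4:**
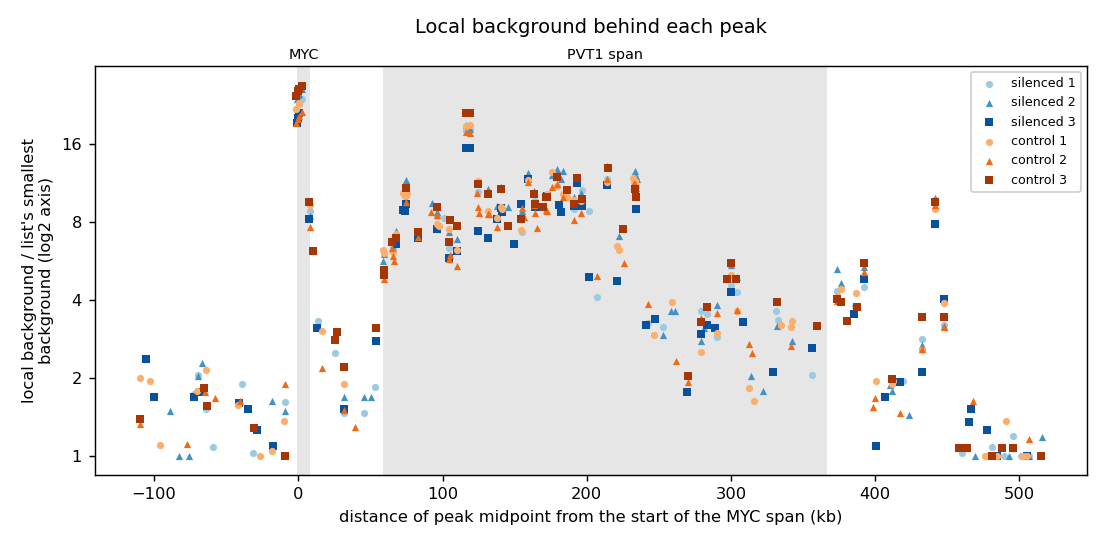
Local background behind each peak, as a multiple of the smallest background of its list (log2 axis), against the distance of the peak's midpoint from the start of the MYC span; each point is 1 peak, and shading marks the MYC and PVT1 spans. All 6 libraries rise at MYC, again at the start of PVT1, and drop after about 234 kb from the start of MYC. A peak right of PVT1, at about 441.5 kb, is raised again in every library (7.86 to 9.89). All are near 1 at the right edge of the plot.

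Few places of the genome behaved like this. Among 9731 bins of 50 kb with at least 3 peaks in every list, 47 (0.483%) had every peak of every list at a ratio no lower than 4, which was picked as the limit with the values in view. In the window 3 of 28 such bins did, and these were neighbours, from 127800000 to 127949999, with lowest ratios of 5.39, 6.59 and 4.13. Chromosome 8 as a whole held 8 of the 47, and chromosome 5 held 18. A peak's local background rises with the number of DNA copies and with the density of open sites around it, and these cannot be told apart from peak lists. DNA copy number was not analysed here.

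The background was computed from height and fold enrichment, so peaks on a raised background have a low fold enrichment for their height by construction. The percentiles below give the size of this and are not separate evidence. In the PVT1 span the median shared region stood at percentile 68.2 by height among all shared regions but at percentile 23.1 by fold enrichment. In the MYC vicinity these were 88.95 and 29.98. The region at the lower end of MYC stood between percentiles 87.8 and 92.4 by height in the 6 libraries, and between 23.96 and 46.5 by fold enrichment. In the flanks the order turned around, with 26.3 by height and 36.9 by fold enrichment on the left and 46.8 and 54.2 on the right. In the right end they were alike, at 34.5 and 35.2. The background also sets how tall a peak had to be to be listed: the lowest listed peak in the left part of PVT1 had a height of 8, 9 and 6 in the silenced and 9, 9 and 9 in the control libraries, against 2 or 3 in the lists as a whole. No site under these heights was listed in that stretch, and the height that a site needed to be listed was not computed.

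**Figure D5:**
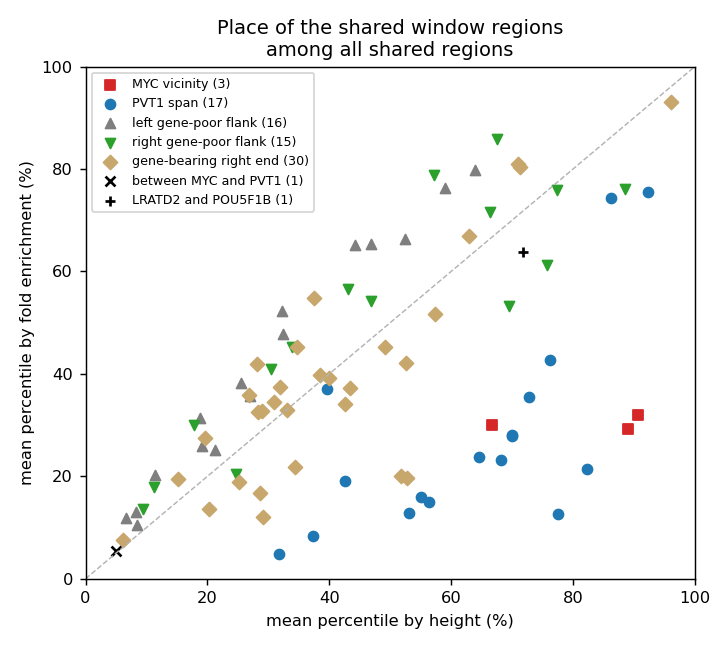
Mean percentile of each of the 83 shared window regions among the 37284 shared regions of the genome, by fold enrichment (vertical) and by height (horizontal); the dashed line marks equal percentiles. MYC and PVT1 regions lie below the line, whereas regions of both flanks lie mostly above it or near it.

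In the left flank the strongest shared regions by rank lay far from MYC. The region at chr8:126876566-126877212, inside LOC105375751, had heights of 23, 22 and 15 in the silenced and 23, 22 and 29 in the control libraries. At chr8:126510260-126510973, inside the long non-coding RNA gene LOC105375750, heights were 18, 24 and 16 against 23, 19 and 18. At chr8:126383708-126384054, outside every gene span, they were 12, 12 and 15 against 29, 17 and 22. In this last region each silenced height lay below each control height, while relative heights and the rank scores by fold enrichment overlapped (difference −0.50, SE 0.278). Heights of 12 to 18 were found at chr8:126817083-126817466 and at chr8:127496396-127496762, the latter 14257 bp from an end of CASC8, and the groups overlapped at both.

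The right flank held taller shared regions, of which 3 lay close to the right end of PVT1. The tallest, chr8:128176361-128177551 inside the long non-coding RNA gene LOC124902020, had heights of 54, 60 and 32 in the silenced and 52, 49 and 57 in the control libraries, or 3.30 ± 0.0914 against 2.997 ± 0.391 in relative height. Its local background ratio was also raised, at 7.86 to 9.89. The region at chr8:128127470-128128302 had heights of 27, 35 and 24 against 31, 40 and 39, and chr8:128183131-128183612 had 20, 32 and 21 against 25, 24 and 21. Further right, chr8:129202303-129202855 had 18, 21 and 18 against 18, 18 and 20, and chr8:129535581-129536317 in CCDC26 had 24, 26 and 15 against 27, 30 and 25. Rank scores of the groups overlapped at each of these 5 regions.

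Ends of genes accounted for few of the window's open regions. The same share over the shared regions of the genome was not computed, so nothing here says that the window's share is low. Of the 83 shared regions, 10 (12.05%) came within 1 kb of where a protein-coding or long non-coding RNA gene begins or stops, and 26 lay outside every gene span, whereas of the 950 regions in 1 list, 32 (3.37%) lay near an end. Among the 7 protein-coding genes of the window, 3 (MYC, LRATD2 and ASAP1) had a peak near an end in all 6 lists, against 59.9% of protein-coding genes in the genome. Among the 34 long non-coding RNA genes, 7 did, against 22.9%, and 6 had none in any list. The 7 were CASC11, PVT1, LINC02912, CCAT1, LOC105375751, LOC124902026 and LOC105375758. LOC105375751 shares its peak with the upper end of LRATD2, and reads cannot be assigned to one of these genes.

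The cancer-linked long non-coding RNA genes left of MYC differed in this. CASC11 and CCAT1 had an end peak in all 6 lists and CCAT2 in 5. PCAT1 and CASC19 had one in 2 lists, PCAT2 and PRNCR1 in 1, and CASC8 and CASC21 in 0. Among the protein-coding neighbours, LRATD2 had heights of 18, 39 and 17 in the silenced and 34, 32 and 32 in the control libraries at its upper end. ASAP1, which encodes a GTPase-activating protein of the cytoskeleton and membrane traffic, had 19, 19 and 9 against 16, 21 and 22. ADCY8, an adenylyl cyclase gene, had an end peak in 5 lists with heights of 2 to 6, GSDMC in 4, CYRIB in 3 and POU5F1B, a retrogene of the pluripotency factor OCT4, in 1. The tallest region of the window in every list but that of silenced replicate 3 lay inside CYRIB, an actin regulator that binds RAC1. It was picked after the values were seen and lay at chr8:129939464-129940514. Its heights were 96, 98 and 35 in the silenced and 89, 91 and 93 in the control libraries. In silenced replicate 3 the regions near LINC02912 (37) and at the end of CASC11 (36) were taller.

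Outside the window, 12 of 12 listed genes of the MYC network had an end peak in every library, against 59.9% of protein-coding genes in the genome. This count carries no test. The genes were MAX, the partner of MYC, the MAX-binding repressors MXD1, MXI1, MXD3, MXD4, MNT and MGA, the related MLX, MLXIP and MLXIPL, and the paralogs MYCN and MYCL. The end peak of MAX had heights of 64, 75 and 33 in the silenced and 55, 73 and 63 in the control libraries, close to those at the lower end of MYC. At MYCN, the paralog known from neuroblastoma, they were 10, 23 and 8 against 10, 24 and 20, and at MYCL 22, 16 and 9 against 21, 20 and 15. At each of these 3 genes the groups overlapped.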

How the data were processed

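ATAC-seq libraries of NCI-H1703 cells, 3 silenced for DLGAP1-AS2 and 3 controls, each started from 10000 to 50000 cells, per the labels' protocols. The submitters' processing notes name Trimmomatic 0.36, Bowtie2 2.2.6, Picard 2.8.2, MACS2 2.1.1, bedtools 2.25.0 and the build GRCh38, with no settings. Whether duplicates were removed, whether a transposase shift was applied to the reads, and over which distance the caller took its local background are not given in the sources used here.

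The authors deposited 1 peak list per library. Per the file headers each peak has a fold enrichment (a ratio to local background), a p-value, an FDR and a pileup signal, called height here. Every deposited p-value was at most 0.00987. The lists hold no read counts, so depth is shown only by the smallest local background of each list and the smallest height it holds, and no counting interval can be given.

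Peaks on chromosomes were merged at 1 bp. A RefSeq table of GRCh38.p14 gave the genes and both ends of their spans. Strand, exons and genome sequence were not used here. Groups followed the labels. Values per library were compared with two-sided exact permutation tests over 20 groupings. Ranks of fold enrichment among the 37284 regions called in all lists were turned into normal scores and tested with limma 3.58.1 (trend) in R 4.3.3, adjusted by Benjamini-Hochberg over all of them. The limma procedure was also run on simulated independent scores with added shifts. Those shifts were larger than the group differences given for window regions, so that run cannot show whether such differences would be found.

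The window, the lists of genes and the tests were chosen with earlier results of these data known. Regions were named by rule: MYC vicinity regions in at least 3 lists, PVT1 regions in all 6 lists and at its ends, the 5 shared regions per flank with the highest mean rank score, regions called in all lists of 1 group and in no list of the other group, and the 3 largest differences in each direction. Alternatives were other limits on FDR (at most 1e-05, under 0.05) or height (at least 4), lists of equal length, regions of 200 bp around midpoints, other rankings, leaving out each library, and the replicate number as a block. The result on the local background in PVT1, the limits of 4 and 8 on it, and leaving out silenced replicate 3 and control replicate 2 together were added after the values were seen.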

Additional observations from a re-analysis of the deposited data

How the results depend on the processing

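With these numbers of libraries no permutation p can fall below 0.1, so no difference in peak numbers, share, covered length or local background could pass, and 6 of the 7 measures changed direction in at least 1 alternative. An exact permutation p of 0.1, with the groups fully apart, was reached by flank peaks under the strict FDR limit (26, 27 and 22 silenced, 28, 30 and 32 control), by the window's share with heights from 4 up (0.279, 0.286 and 0.275 against 0.262, 0.274 and 0.2695%, difference 0.0113) and without control replicate 2 (0.0215), and by MYC vicinity peaks without control replicate 1 (−1.33). Silenced minus control, window peaks (41.3 with all peaks) became −13.3 under the strict FDR limit (1e-05), −5.67 under the loose one (0.05), −21.0 with heights from 4 up and −0.667 in lists of equal length. The share of the list (0.011 percentage points) became −0.00508, −0.0027 and −0.00073 at these FDR limits and at equal length. Covered length (4.1 kb) became −5.93, −6.10, −9.65 and −4.89 kb. MYC vicinity peaks (−0.667) became 0.333 under the loose limit and at equal length. Flank peaks (35) became −5.0 under the strict limit and −10.0 with heights from 4 up. The PVT1 background ratio (−0.449) became 0.222 under the strict limit. Leaving out 1 library at a time gave −11.3 to 77.7 window peaks, 0.00354 to 0.0215 percentage points, −8.71 to 16.01 kb, −1.33 to −0.333 MYC vicinity peaks, −7.5 to −2.67 PVT1 peaks, −10.3 to 64.8 flank peaks and −0.841 to 0.039 in the PVT1 background ratio. The negative values for window and flank peaks came without control replicate 2, and the positive background ratio without silenced replicate 3.

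Regions in all silenced and no control lists (4) numbered 0 under the strict limit, 1 under the loose one, 0 with heights from 4 up, 1 at equal length, 4 to 20 with 1 library left out and 25 without silenced replicate 3 and control replicate 2. Those in control lists alone (5) numbered 1, 2, 6 to 18 and 21 at the FDR limits and with libraries left out; the highest came without silenced replicate 3 (20) and without control replicate 2 (18), and fewer lists to agree make such counts larger by construction. The rank comparison called 0 window regions under every alternative run. The difference at the lower end of MYC (0.07) became −0.0599 by height, −0.0863 by p-value, −0.0700 by log2 height, −0.10 among regions under the strict limit, and −0.11 to 0.20 with 1 library left out. That past its upper end (0.11) became −0.00647, −0.0162, −0.0395, −0.13 and −0.0026 to 0.21. The cause of these turns was not tested. The 6 regions with the largest differences, the region at the end of CASC11 and the 5 PVT1 regions whose groups did not overlap kept their sign in each alternative that gave a value. Of 22 further named regions, 11 changed sign in at least 1 of their fits (236 in all), and none was called.

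Rank scores of same-numbered libraries did not deviate together over the shared regions (correlations of −0.00196, 0.00238 and −0.00829). Ranking within each list removes shifts of a whole library, so these values cannot show whether such libraries shared a culture or a batch. With the replicate number as a block, limma called 0 of 83 window regions, with 5 at an unadjusted p under 0.05, and sign-flip tests over the pairs, which cannot go below 0.25, gave exact p-values of 0.5 to 1.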
